A study of Mus musculus with 4 samples.

Results

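Doxorubicin acts on a few known proteins, and 7 genes for those proteins and for the pumps that export the drug were followed across the cells of B16F10 tumours. The members were taken by name from the 31053 genes of the deposited matrices. They are the topoisomerases Top1, Top2a and Top2b and the efflux pumps Abcb1a, Abcb1b, Abcc1 and Abcg2. Each was read by cell class, by library and by cycling state, which was set by whether a cell held at least 1 Mki67 UMI (unique molecular identifier, a counted mRNA molecule) or none. Mki67 encodes the Ki-67 protein of dividing cells.

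The libraries came from B16F10 melanoma tumours grown in mice and read cell by cell from the 5′ ends of mRNA, with 1 library for each of 4 groups. The D+F+P group received doxorubicin, fasudil and an antibody against PD-1, the D+F group doxorubicin and fasudil, the aPD-1 group the antibody alone, and the fourth group was the control. Doxorubicin is an anthracycline used in chemotherapy, fasudil inhibits the kinase ROCK, and PD-1 is an inhibitory receptor of T cells. All tumours derive from a single mouse cell line described by the submitters as resistant to checkpoint blockade. The tumours were digested without a sort for cell type and cleared of red cells, debris and dead cells, so cells killed by a drug were not measured. The number of mice in a library, the doses and the time between treatment and harvest are not given in the labels. With 1 library per group no test between treatments was possible, and every interval on a library value covers counting error only.

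Topoisomerases relax and untangle DNA by cutting and rejoining it. Top1 cuts a single strand ahead of transcription and replication, whereas the type II enzymes cut both strands, and anthracyclines trap type II enzymes on the cut DNA. Top2a is made mainly in dividing cells and is needed to separate chromosomes at mitosis, while Top2b is also present in resting cells. Abcb1a and Abcb1b are the paired mouse forms of P-glycoprotein, Abcc1 is multidrug resistance protein 1, and Abcg2 is breast cancer resistance protein. All are membrane pumps that use ATP to carry drugs out of cells, and the first 3 are known to transport doxorubicin.

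The stretches just upstream of the genes are shown for the 3 members whose window held a CCAAT motif, because Top2a, the member that varied most with cycling state, stood apart in the number of these motifs. In the human TOP2A gene, inverted CCAAT boxes bound by the factor NF-Y are known promoter elements. Each window is the 250 bases before the RefSeq start of the gene in GRCm38.p6, written 5′ to 3′ on the strand of the gene. Capitals mark CCAAT or its reverse complement ATTGG. The Top2a window is chr11:99024190-99024439 (minus strand), the Top2b window is chr14:16364956-16365205 (plus strand), and the Abcb1b window is chr5:8797897-8798146 (plus strand).
Top2a: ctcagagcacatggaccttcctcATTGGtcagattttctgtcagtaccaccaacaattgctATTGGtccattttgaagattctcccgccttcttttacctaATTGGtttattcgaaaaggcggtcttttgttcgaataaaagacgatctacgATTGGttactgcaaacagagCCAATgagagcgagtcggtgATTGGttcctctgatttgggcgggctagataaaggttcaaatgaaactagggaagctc
Top2b: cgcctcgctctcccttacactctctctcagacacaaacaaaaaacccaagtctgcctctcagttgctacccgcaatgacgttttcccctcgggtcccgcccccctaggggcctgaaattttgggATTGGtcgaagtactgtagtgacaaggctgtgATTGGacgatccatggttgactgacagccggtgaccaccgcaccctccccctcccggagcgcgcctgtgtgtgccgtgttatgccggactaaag
Abcb1b: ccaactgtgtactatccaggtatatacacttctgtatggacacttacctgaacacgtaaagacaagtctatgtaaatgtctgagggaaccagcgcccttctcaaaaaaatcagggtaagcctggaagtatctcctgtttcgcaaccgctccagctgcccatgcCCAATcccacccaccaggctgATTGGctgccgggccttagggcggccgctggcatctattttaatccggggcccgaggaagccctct
The Top2a window held 6 CCAAT motifs over both strands, that of Top2b held 2 and that of Abcb1b held 2. Of 32851 RefSeq promoter windows of the same length, 33.8% held at least 1 and 19 (0.0578%) held at least 6. The window of Top1 held none, and the other windows found, those of Abcb1a and Abcg2, held none either. The Abcb1a window (chr5:8566841-8567090) belongs to a RefSeq start far upstream of the gene start at 8660077 listed below. It therefore does not describe the bases next to that start. Abcg2 had windows at 3 RefSeq starts, and those at chr6:58596422-58596671 and chr6:58640296-58640545 lie inside the gene as listed below. The windows of Top2b (end 16365205), Top1 (end 160645896) and the first Abcg2 start (end 58584532) also reach a short way into the genes as listed below. RefSeq windows were found for 6 of the 7 members, with no entry for Abcc1. The motif TTTGAA occurred 2 times in the Top2a window, as in 1.81% of all windows (at least 2), and GGGCGG once, as in 32.7% (at least 1). A motif match describes these letters and is not a measured binding site.

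The members differ in position and in how deeply they were sampled. Top1 (ENSMUSG00000070544, chr2:160645888-160722764, plus strand) held 21203 UMIs over all kept cells. Top2a (ENSMUSG00000020914, chr11:98992943-99024189, minus strand) held 12908 UMIs and Top2b (ENSMUSG00000017485, chr14:16365179-16435462, plus strand) held 3477. Abcb1a (ENSMUSG00000040584, chr5:8660077-8748575, plus strand) held 271 UMIs, and its neighbour Abcb1b (ENSMUSG00000028970, chr5:8798147-8866315, plus strand) held 1104. Abcc1 (ENSMUSG00000023088, chr16:14361558-14475737, plus strand) held 1932 UMIs and Abcg2 (ENSMUSG00000029802, chr6:58584523-58695676, plus strand) held 1432. All 7 are annotated as protein coding, with coordinates on GRCm38. Abcb1a and Abcb1b are near copies, and 16.3% of the 50-base stretches of the Abcb1a transcripts also occurred in Abcb1b, against 8.12% within the first 300 bases, the end that this chemistry reads. Of the Abcb1b stretches 11.1% occurred in Abcb1a, against 14.8% within the first 300 bases. Reads in those stretches could be dropped or split between the pair. Top2a and Top2b shared no stretch of 50 bases.

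The libraries held 2445, 2490, 2240 and 2286 kept cells in D+F+P, D+F, aPD-1 and control, with median UMIs per cell of 1876, 12887.5, 9589 and 16162.5. The low median of the D+F+P library came with 647 shallow, ribosome-poor barcodes nearest to T cells, which were set apart as unnamed. The melanoma-like class held 501 cells in D+F+P, 1647 in D+F, 1069 in aPD-1 and 1868 in control. All 8 melanocyte markers were detected in it in every library, and they summed to between 11367.7 and 12059.3 CPM (UMIs of the genes per 1000000 UMIs of the class in that library). CD8 T-like cells numbered 352 in D+F+P, 165 in D+F and 332 in aPD-1. The control library held 8 such cells, which is too few for comparison. NK-like, regulatory T-like, monocyte/macrophage-like, conventional DC-like and fibroblast-like cells were fewer, at most 150 in a library. Across the libraries 69 barcodes occurred more than once, 50 of them among kept cells.

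Topoisomerase mRNA was present in every class compared, and these classes differed most in Top2a. Neutrophil-like cells reached 20 cells in control alone. Their 22761 UMIs held none of Top2a or Top2b and were too few for comparison. Levels are CPM of the UMIs summed over a class in 1 library, and they are compared within a gene only, as the libraries carry no length scale. Top2a was at 172, 190 and 185 CPM in CD8 T-like cells of D+F+P, D+F and aPD-1. In melanoma-like cells it was at 72.0 CPM in D+F+P, 85.8 in D+F, 85.1 in aPD-1 and 155 in control. Regulatory T-like cells ranged from 134 to 165 CPM over 3 libraries. The ranges of CD8 T-like and melanoma-like cells therefore did not overlap, while regulatory T-like and melanoma-like cells did. The lowest Top2a levels lay in conventional DC-like cells (26.4 to 45.6 CPM), monocyte/macrophage-like cells (22.1 to 58.6 CPM) and fibroblast-like cells (24.6 to 66.0 CPM), and these 3 ranges overlapped. NK-like cells ranged from 48.6 to 282 CPM and overlapped every one of these classes except conventional DC-like cells.

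Top1, the single-strand enzyme, varied little between classes. Its range was 185 to 264 CPM in conventional DC-like cells, 167 to 217 in melanoma-like cells, 125 to 195 in monocyte/macrophage-like cells and 145 to 170 in CD8 T-like cells. Neighbours in this order overlapped. NK-like (108 to 282 CPM) and regulatory T-like cells (117 to 178 CPM) overlapped several of these. Fibroblast-like cells had 111 and 100.3 CPM in D+F+P and aPD-1, below all melanoma-like values. Top2b, the type II enzyme of resting cells as well, was at 31.4 to 66.0 CPM in conventional DC-like cells, 30.9 to 50.4 in CD8 T-like cells and 25.4 to 31.4 in melanoma-like cells. It was at 17.4 to 21.2 CPM in regulatory T-like cells, below the melanoma-like range, with intervals that overlapped it. Between 33.3% and 66.7% of the conventional DC-like cells in these 3 libraries also held markers of another class, and the part of those cells in the values was not tested.

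The paired P-glycoprotein genes differed in where they were found. Abcb1a was at or near 0 in melanoma-like cells, with 0, 2, 0 and 1 UMIs in D+F+P, D+F, aPD-1 and control, or at most 0.072 CPM. In CD8 T-like cells it was at 13.3, 10.0 and 10.0 CPM in D+F+P, D+F and aPD-1, with UMIs in 12.8%, 7.88% and 6.93% of cells. The share of melanoma-like cells with an Abcb1a UMI was 0% in D+F+P, where a floor of 3 of 501 cells would be 0.599%, and 0.121%, 0% and 0.0535% in D+F, aPD-1 and control. The melanoma-like cells were the deeper ones, with median UMIs of 29235 against 10870 in CD8 T-like cells of D+F+P. NK-like cells (6.94 to 33.5 CPM) and regulatory T-like cells (7.82 to 26.1 CPM) overlapped the CD8 T-like range. No Abcb1a UMI was seen in conventional DC-like or fibroblast-like cells, where 3 UMIs would be 3.96 to 20.8 CPM. Of the 271 Abcb1a UMIs, melanoma-like cells held 3 (1.11%), CD8 T-like cells 93 (34.3%) and unnamed clusters 108 (39.9%).

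Abcb1b was found in tumour cells as well. It was at 8.02, 5.61, 6.65 and 6.99 CPM in melanoma-like cells of D+F+P, D+F, aPD-1 and control. CD8 T-like cells had 24.1, 23.96 and 23.7 CPM in D+F+P, D+F and aPD-1, all above every melanoma-like value. NK-like cells reached 20.1 to 47.1 CPM and overlapped the CD8 T-like cells. Regulatory T-like cells had 3.91 to 7.07 CPM from 1 UMI in each library.

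The other pumps followed a different pattern. Abcc1 was at 41.8 and 30.4 CPM in fibroblast-like cells of D+F+P and aPD-1. Melanoma-like cells had 14.4, 17.3, 17.1 and 14.5 CPM in D+F+P, D+F, aPD-1 and control, below both fibroblast-like values. CD8 T-like cells had 9.41 to 12.9 CPM, just below the melanoma-like range and with overlapping intervals. Monocyte/macrophage-like cells ranged from 0 to 30.7 CPM of Abcc1 (26 UMIs in all) and NK-like cells from 0 to 23.8 CPM (13 UMIs in all). The monocyte/macrophage-like range thus overlapped both the melanoma-like and the fibroblast-like values. Abcg2 was at 27.0 and 14.5 CPM in fibroblast-like cells and at 12.3, 14.8, 12.1 and 13.5 CPM in melanoma-like cells. NK-like cells ranged from 11.1 to 29.8 CPM of Abcg2, from 13 UMIs over 4 libraries, and overlapped both of these classes. CD8 T-like cells had 2.65, 0.773 and 0.804 CPM of Abcg2, from 11, 1 and 2 UMIs. A sum of 5 pigment genes came in these CD8 T-like cells to 0.712%, 2.95% and 1.77% of their melanoma-like level. At those shares, transcripts from tumour cells would come to 0.0874, 0.436 and 0.214 CPM of Abcg2. These values take Abcg2 to be carried over in the same proportion as the pigment genes. The Poisson interval of Abcg2 was 1.32 to 4.75 CPM in D+F+P, 0.0196 to 4.31 CPM in D+F and 0.0973 to 2.90 CPM in aPD-1. The part of tumour RNA in the Abcg2 of CD8 T-like cells was not tested.

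**Figure D1:**
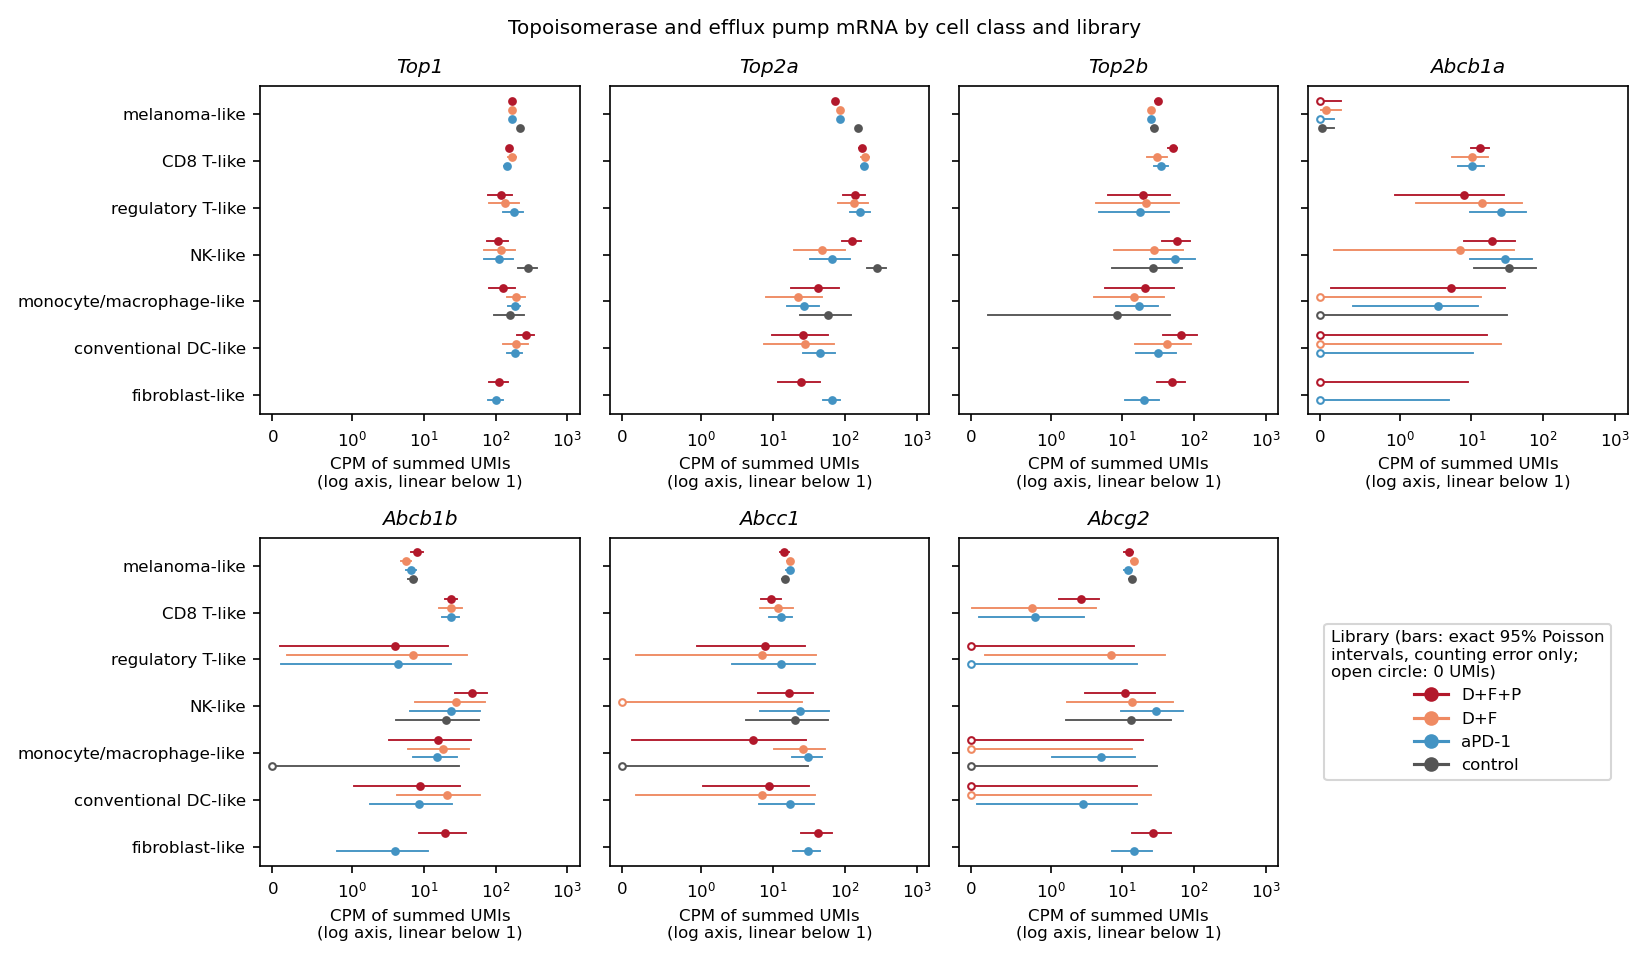
Level of the 7 genes (CPM of summed UMIs, log axis that is linear below 1) in 7 cell classes, with 1 point per library and exact 95% Poisson intervals. Abcb1a lies at 0 to 0.072 CPM in melanoma-like cells and at 10.0 to 13.3 CPM in CD8 T-like cells, while Abcg2 is at 12.1 to 14.8 CPM in melanoma-like and 0.773 to 2.65 CPM in CD8 T-like cells.

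The genes whose log2(CPM + 1) most resembled each member were read over 24 sums of class and library, as a description of sums that share libraries and depth. The thin neutrophil-like sum of control was among them. For Top2a the nearest genes were Pclaf (Pearson r = 0.978), Smc4 (0.970), Stmn1 (0.947), Rbm10 (0.946) and Lig1 (0.946). Pclaf binds the sliding clamp PCNA, Smc4 is a condensin subunit and Lig1 is the DNA ligase of replication. For Abcb1a they were Gimap1 (0.957), Ikzf3 (0.937), Sla2 (0.930), Gimap7 (0.929) and Gimap6 (0.919), which are genes of lymphocytes. The values were lower for Abcb1b, led by Polr2b (0.821) and Serpinb9 (0.819), and for Abcc1, led by Trim44 (0.841) and Tmem214 (0.840).

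Within melanoma-like cells, Top2a separated cycling from other cells in every library. In Mki67-positive cells it was at 147 CPM in D+F+P, 173 in D+F, 180 in aPD-1 and 249 in control. Mki67-negative cells had 19.7, 28.0, 24.04 and 40.6 CPM, so that the states did not overlap. A paired comparison over the 4 libraries with edgeR's quasi-likelihood test gave a log2 difference of 2.71 (SE 0.0520, adjusted p = 1.88e-25), higher in 4 of 4 libraries. Mki67-positive cells held 83.9%, 80.4%, 82.8% and 88.2% of all Top2a UMIs of the class in D+F+P, D+F, aPD-1 and control. They held 41.1%, 39.9%, 39.2% and 54.9% of all UMIs.

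The other members moved less and in both directions. Of the 6 members tested in this contrast, 3 rose (Top2a, Top1 and Abcb1b) and 1 fell (Abcc1), against 22.5% of 11325 genes that rose and 25.2% that fell. The count of 4 of 6 is thus not far from the 47.6% of all genes that changed. Top1 rose by 0.23 (SE 0.0378, adjusted p = 8.38e-06), with 197, 186, 185 and 232 CPM in Mki67-positive cells of D+F+P, D+F, aPD-1 and control and 154, 161, 155 and 200 CPM in Mki67-negative cells. Abcb1b rose by 0.57 (SE 0.127, adjusted p = 0.000483), with 8.47, 7.79, 8.17 and 8.37 CPM in Mki67-positive cells and 7.70, 4.17, 5.67 and 5.30 CPM in Mki67-negative cells. The D+F+P library differed least, at 0.14 (95% interval -0.42 to 0.69).

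Abcc1, a pump, fell by 0.45 (SE 0.0861, adjusted p = 8.81e-05). It was at 10.5, 14.1, 13.5 and 13.6 CPM in Mki67-positive cells and 17.1, 19.5, 19.4 and 15.6 CPM in Mki67-negative cells, lower in 4 of 4 libraries. Top2b (-0.01, adjusted p = 0.95) and Abcg2 (-0.08, adjusted p = 0.437) did not pass. Abcb1a was too sparse to test. Mki67-positive cells were deeper than Mki67-negative cells, with medians of 33148 against 27369 UMIs in D+F+P and 19620 against 16109 in control. With cells thinned to 5000 UMIs before the state was read, Top2a (1.85), Abcb1b (0.81) and Abcc1 (-0.51) still passed and Top1 did not (0.16, adjusted p = 0.0677). Without the library block Top1 (adjusted p = 0.0826) and Abcb1b (adjusted p = 0.0597) also missed the threshold.

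**Figure D2:**
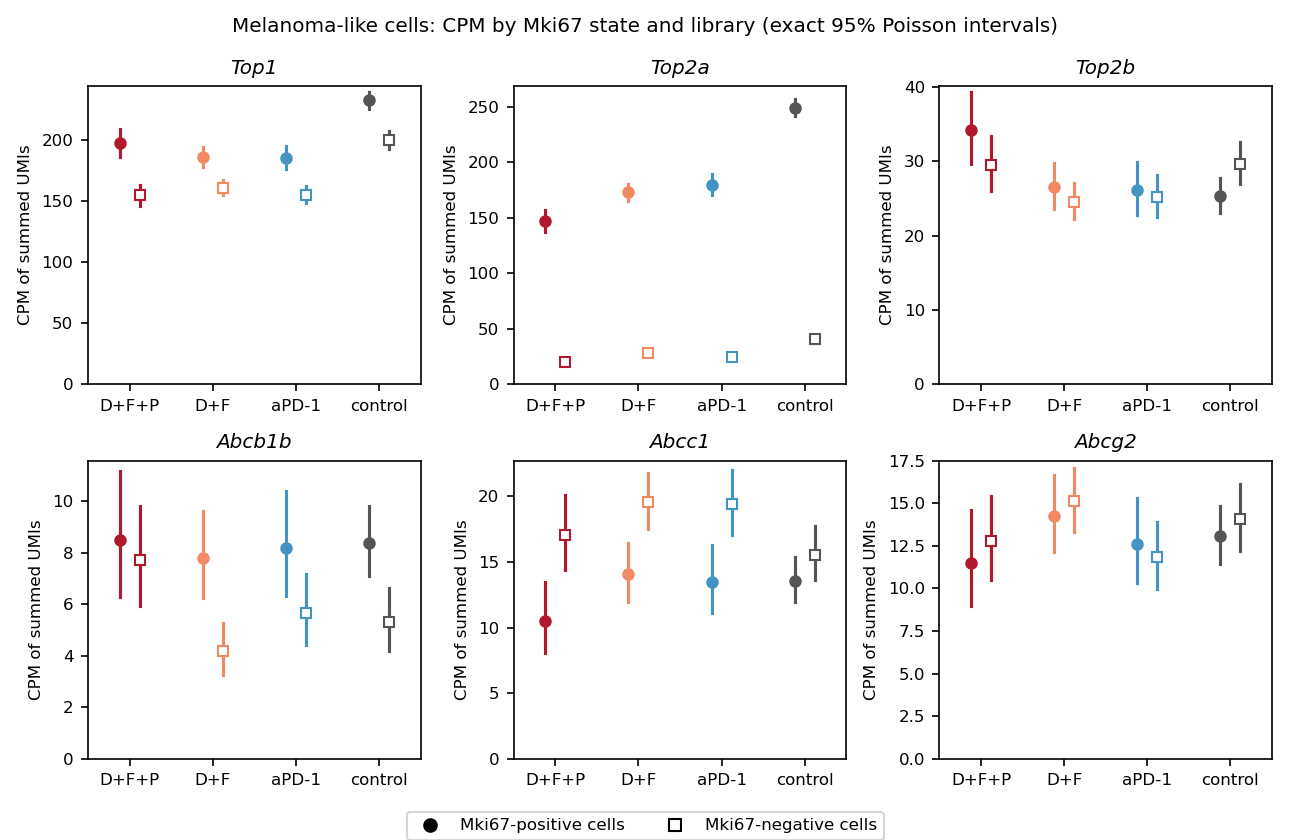
CPM of 6 members in Mki67-positive (filled circles) and Mki67-negative (open squares) melanoma-like cells of each library, with exact 95% Poisson intervals. Top2a lies at 147 to 249 CPM in Mki67-positive and 19.7 to 40.6 CPM in Mki67-negative cells, and control is the highest library in both states.

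Top2a levels also differed in steps with the number of Mki67 UMIs, so the Mki67-positive state joins cells of unlike Top2a level. Whether single cells form a continuous range or a mix of separate states was not tested. In D+F+P melanoma-like cells Top2a was at 19.7, 52.2, 142 and 191 CPM in cells with 0, 1, 2 and 3 or more Mki67 UMIs. In D+F these levels were 28.0, 80.9, 139 and 245 CPM, in aPD-1 24.04, 88.9, 114 and 255 CPM, and in control 40.6, 118, 195 and 329 CPM. Control was the highest library at each number of Mki67 UMIs. Depth was not matched here, and the same number of Mki67 UMIs is a smaller share of a deeper cell. Mki67-negative cells had median UMIs of 27369 in D+F+P, 15425 in D+F, 17956.5 in aPD-1 and 16109 in control. The part of depth in these steps was not tested. Abcc1 at 0 and at 1 UMI was at 17.1 and 12.4 CPM in D+F+P and at 15.6 and 14.3 CPM in control.

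Related genes from 5 lists were read in the same contrast. The median of all genes there was -0.03, and 22.5% of them rose and 25.2% fell. Of 7 other topoisomerases and their partners, 3 rose and none fell. These were Rmi2 (1.79) and Top3a (1.003), which act together in dissolving DNA junctions, and Topbp1 (1.09), an activator of the checkpoint kinase ATR. Top3b (-0.02) and the mitochondrial Top1mt (0.10) did not pass. Of 21 genes that remove trapped topoisomerases or repair the breaks, 15 rose and 2 fell, with a list median of 0.52. The Fanconi gene Fancd2 (2.37) led, and Brca1 (-0.36) and Xrcc5 (-0.17), the large Ku subunit, fell. Tdp1 and Tdp2, the enzymes that release Top1 and Top2 from DNA ends, rose by 0.98 and 0.25. All 35 of 35 proliferation genes rose, with a median of 2.52.

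Transporters and drug-handling genes moved both ways between the states, beside 22.5% of all genes that rose and 25.2% that fell. Of 21 other ABC transporters tested, 5 rose and 9 fell, with a list median of -0.18. Those that rose most were Abcf2 (0.48) and the peptide transporter subunit Tap1 (0.29), and those that fell most were Abcc10 (-0.75), itself a drug pump, and Abca7 (-0.53). Of 18 genes of anthracycline metabolism, uptake and sequestration, 2 rose and 8 fell. The largest falls were those of Mvp (-0.996), the major vault protein, and Nos3 (-0.78), and Akr1b3 (0.22), an aldo-keto reductase, was among the rises.

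Between libraries, Top2a was the member that differed most in melanoma-like cells, and it was lower in each treated library than in control. The log2 ratio over control was -1.11 in D+F+P (95% interval -1.21 to -1.01), -0.86 in D+F (-0.93 to -0.78) and -0.87 in aPD-1 (-0.95 to -0.79). The aPD-1 tumours received no doxorubicin, and their ratio lay within the interval of D+F, which covers counting error only. With 1 library per group, the part of any treatment in these differences was not tested. Top2a was the only one of the 6 members with 20 UMIs that was past 1.5-fold lower, in each of the 3 comparisons, which share the control library. The share of all genes at least 1.5-fold lower was 11.4% of 12056 in D+F+P, 5.35% of 12405 in D+F and 6.45% of 12177 in aPD-1. As 1 of 6 members, the count is close to that background. No member was past 1.5-fold higher, against 9.41%, 7.17% and 6.25% of all genes.

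Top1 was lower in the treated libraries by a smaller and nearly equal amount. Its log2 ratios over control were -0.34 in D+F+P (-0.40 to -0.27), -0.35 in D+F (-0.40 to -0.30) and -0.38 in aPD-1 (-0.44 to -0.32). Its levels were 172, 171 and 167 CPM in these libraries and 217 CPM in control. The median log2 ratio of all genes was -0.11, -0.07 and -0.06. Top2b had log2 ratios of 0.20 in D+F+P (0.04 to 0.37), -0.11 in D+F (-0.25 to 0.04) and -0.10 in aPD-1 (-0.26 to 0.06), with 31.4, 25.4, 25.5 and 27.3 CPM in D+F+P, D+F, aPD-1 and control.

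The pumps of tumour cells were within 1.5-fold of control in all 3 treated libraries. Abcc1 had log2 ratios of -0.01 in D+F+P (-0.25 to 0.23), 0.26 in D+F (0.08 to 0.45) and 0.24 in aPD-1 (0.04 to 0.44). Abcb1b had 0.20 in D+F+P (-0.14 to 0.53), -0.32 in D+F (-0.62 to -0.02) and -0.07 in aPD-1 (-0.39 to 0.24). The ratios of Abcg2 were -0.14, 0.13 and -0.16, each with an interval that included 0. Abcb1a, with 3 UMIs in all, gave no ratio.

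**Figure D3:**
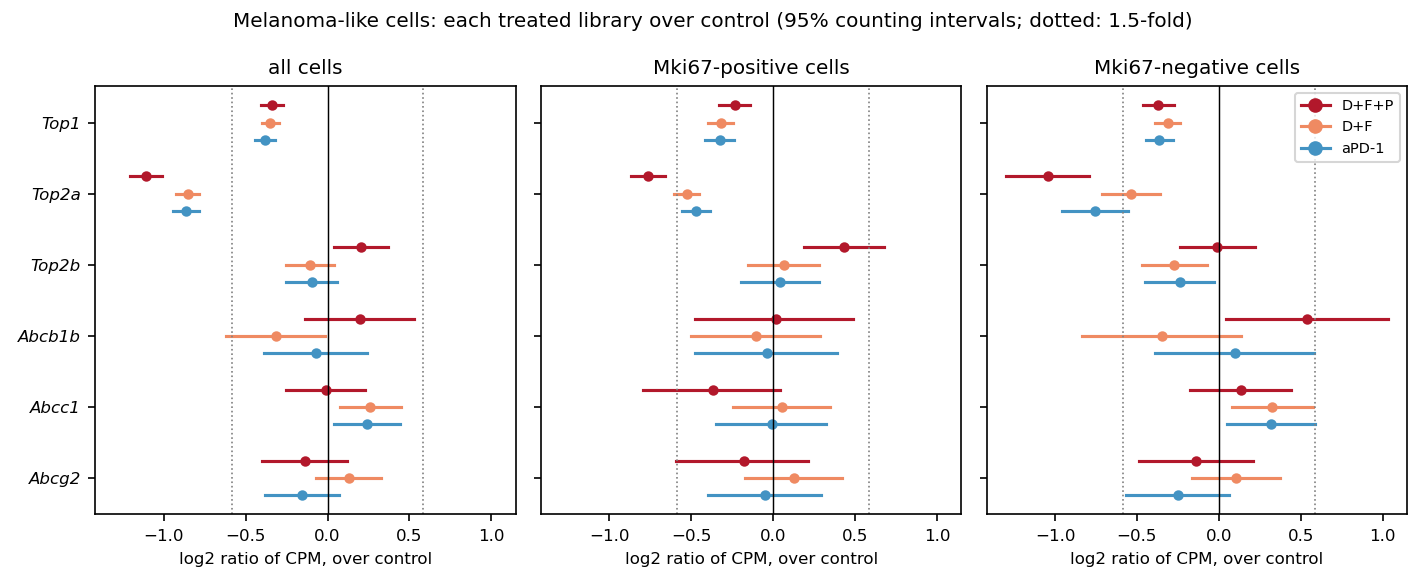
Log2 ratio of CPM over control in melanoma-like cells for each treated library, in all cells, Mki67-positive cells and Mki67-negative cells, with 95% counting intervals and dotted lines at 1.5-fold. In all cells Top2a lies at -1.11, -0.86 and -0.87 in D+F+P, D+F and aPD-1 and Top1 at -0.34, -0.35 and -0.38, while Abcb1b, Abcc1 and Abcg2 lie between -0.32 and 0.26.

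The difference in Top2a was present within each cycling state as set by Mki67 at full depth, which was greater in D+F+P than in control. Among Mki67-positive cells its log2 ratio over control was -0.76 in D+F+P, -0.53 in D+F and -0.47 in aPD-1, past 1.5-fold lower in D+F+P alone, where 11.7% of genes were, against 4.89% in D+F and 5.48% in aPD-1. Among Mki67-negative cells it was -1.04, -0.54 and -0.75, past 1.5-fold lower in D+F+P and aPD-1, where 12% and 7.88% of genes were, and not in D+F (6.2% of genes). Where cycling was instead set by at least 3 proliferation genes, the cells below that line gave 0.20 in D+F+P and 0.04 in aPD-1. In these libraries the direction in the non-cycling cells thus turned with the definition. Few cells lay below that line, as 433 of 501 in D+F+P, 821 of 1069 in aPD-1 and 1661 of 1868 in control counted as cycling. Top1 was lower in both states and in all 3 treated libraries, with ratios of -0.24, -0.32 and -0.33 among Mki67-positive and -0.37, -0.31 and -0.36 among Mki67-negative cells.

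The share of cycling cells differed as well. An Mki67 UMI was found in 36.5%, 34.5% and 34.5% of melanoma-like cells of D+F+P, D+F and aPD-1 and in 49.8% of those of control. With cells thinned to 5000 UMIs these shares were 17.9%, 20%, 19.3% and 29.7%. In monocyte/macrophage-like cells, which mostly do not divide, the share was 4.26%, 5.71%, 3.33% and 6.45%, or 8.33%, 6.67%, 9.30% and 11.1% after the same thinning. The thinned values rest on 1 of 12, 1 of 15, 4 of 43 and 1 of 9 cells, as cells under 5000 UMIs were left out. They are too few for comparison. The Top2a difference of -83.2 CPM in D+F+P divided arithmetically into 27.7% from the share of UMIs in Mki67-positive cells, 59.2% from the level within those cells and 13.1% from Mki67-negative cells. For the -69.4 CPM of D+F the parts were 38.2%, 52.3% and 9.54%. For the -70.0 CPM of aPD-1 they were 40.8%, 46.7% and 12.5%. The states behind these parts were also read at full depth, so the parts depend on the unequal depth of the libraries.

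The melanoma-like class had a different make-up in each library, and Top2a was compared within its clusters. Cluster 3, led by Ptgds, Cxcl10 and Iigp1, held 60.5% of the cells in D+F+P, 31.5% in D+F, 33.2% in aPD-1 and 12.9% in control. Its Top2a level was 59.9, 63.9 and 59.9 CPM in the treated libraries and 114 CPM in control. In cluster 1, led by Rrm2, Tk1 and Cdk1, Top2a was at 260.0, 287 and 330.0 CPM in D+F+P, D+F and aPD-1 and at 376 CPM in control. Top2a was below control in 5 of 5 clusters with 20 cells in D+F+P (log2 ratio -0.93 to -0.39), 6 of 6 in D+F (-0.84 to -0.25) and 6 of 6 in aPD-1 (-0.93 to -0.04). Top1 was below control in every one of these clusters too, from -0.65 to -0.27. The Top2a interval included 0 in cluster 0 of aPD-1 (-0.229 to 0.144) and in cluster 4 of D+F (-0.528 to 0.023). All of these ratios share the control library.

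**Figure D4:**
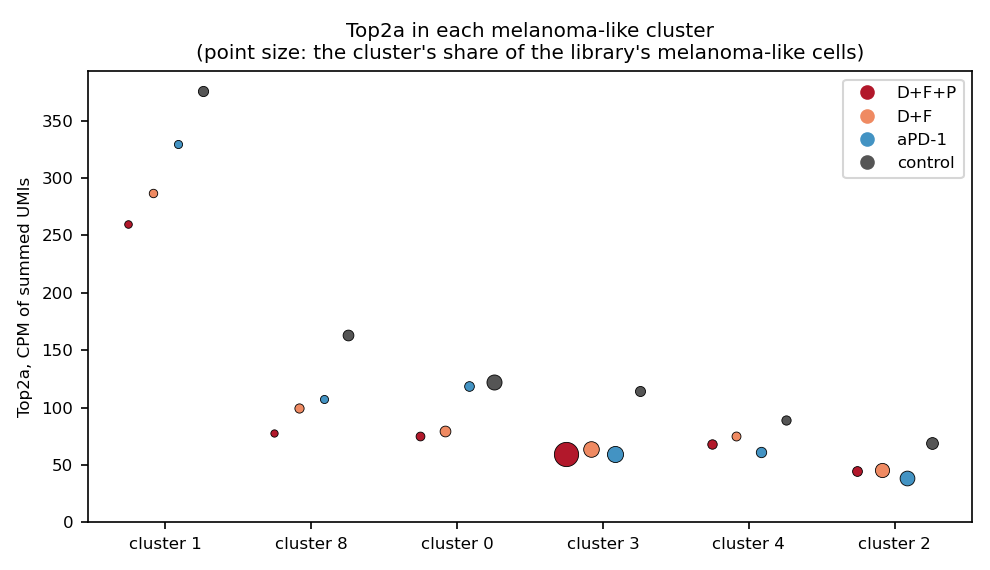
Top2a (CPM of summed UMIs) in the 6 melanoma-like clusters, ordered by level, with 1 point per library. The point diameter grows with the cluster's share of that library's melanoma-like cells. Control is the highest point in every cluster, and the largest point is cluster 3 of D+F+P with 60.5% of the cells; the D+F+P point of cluster 8 rests on 18 cells.

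Between the treated libraries no member was past 1.5-fold in all melanoma-like cells, where 9.89% of genes were in D+F+P over D+F and 9.59% in D+F+P over aPD-1. Top2a was lower in D+F+P than in D+F by a log2 ratio of -0.25 (-0.36 to -0.15) and than in aPD-1 by -0.24 (-0.36 to -0.13). Top2b was higher in D+F+P, at 0.31 over D+F (0.14 to 0.48) and 0.30 over aPD-1 (0.12 to 0.48). Abcb1b was 0.51 higher in D+F+P than in D+F (0.15 to 0.87). That difference lay in Mki67-negative cells, at 0.89 (0.38 to 1.39) from 7.70 CPM in D+F+P and 4.17 CPM in D+F, against 0.12 in Mki67-positive cells. It was the one member past 1.5-fold higher there, where 4.93% of genes were. The difference between the states was not tested.

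Related genes were read over control in the same cells, where 11.4%, 5.35% and 6.45% of all genes were at least 1.5-fold lower in D+F+P, D+F and aPD-1. Of 21 repair genes, 4, 0 and 2 were as low and none was as much higher, with list medians of -0.45, -0.20 and -0.31 beside -0.11, -0.07 and -0.06 over all genes. Fancd2 was at -0.76, -0.58 and -0.71. Of 35 proliferation genes, 28, 17 and 27 were at least 1.5-fold lower, with medians of -0.87, -0.53 and -0.74. Of 7 other topoisomerases, Rmi2 was higher in D+F+P at 1.13 (0.79 to 1.47) and Top3a lower at -0.89, and none was past 1.5-fold in D+F or aPD-1.

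The other ABC transporters had medians of -0.05, 0.16 and 0.09, with 3, 2 and 3 of 22 at least 1.5-fold higher and 1 lower in each library. The cholesterol exporter Abca1 was higher at 1.62, 0.81 and 1.18, and the subunits of the antigen peptide transporter, Tap1 (1.08, 0.70 and 0.76) and Tap2 (1.17, 0.57 and 0.73), were also higher. Abcb9, a lysosomal peptide transporter, was lower at -1.37, -0.63 and -0.98. Of 18 drug-handling genes, 2, 1 and 2 were at least 1.5-fold higher and 1 lower in each library, with medians of -0.13, -0.02 and -0.09. Among them Xdh, xanthine dehydrogenase, was higher at 2.12, 1.32 and 1.56, and Gsta4, a glutathione transferase, at 1.20, 0.46 and 1.02. Nqo1, a quinone reductase, was at -0.71, -0.68 and -0.45 from 11, 22 and 19 UMIs in D+F+P, D+F and aPD-1 and 41 in control, and Cbr3, a carbonyl reductase, at -0.37, -0.35 and -0.69. In melanoma-like cells 7 lymphocyte genes summed to 0.186%, 0.0498% and 0.0825% of their level in CD8 T-like cells of D+F+P, D+F and aPD-1, and the part of lymphocyte RNA in these genes was not tested.

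CD8 T-like cells also held Top2a mainly in their cycling cells, and there the pump Abcb1b did not follow the melanoma pattern. Top2a was at 251, 257 and 301 CPM in Mki67-positive cells of D+F+P, D+F and aPD-1 and at 48.8, 77.2 and 57.5 CPM in Mki67-negative cells. It rose by 2.18 (edgeR quasi-likelihood test, SE 0.116, adjusted p = 3.07e-15, higher in 3 of 3 libraries), where 12.9% of 11256 genes changed. No other member passed. Abcb1b was at 21.0, 18.4 and 20.7 CPM in Mki67-positive and 29.0, 33.4 and 27.0 CPM in Mki67-negative CD8 T-like cells (log2 difference -0.58, SE 0.226, adjusted p = 0.0924).

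The difference between the 2 classes was tested in the same fit over the 3 treated libraries, a comparison added after the levels had been seen. Of all genes, 2.99% differed, and of the members 2 did. Abcb1b differed by -1.10 (SE 0.276, adjusted p = 0.0202), with the log2 contrast at -0.47, -0.86 and -0.39 in CD8 T-like cells and 0.14, 0.90 and 0.53 in melanoma-like cells of D+F+P, D+F and aPD-1. Top2a differed by -0.57 (SE 0.153, adjusted p = 0.0302), with contrasts of 2.36, 1.73 and 2.39 in CD8 T-like cells and 2.90, 2.63 and 2.90 in melanoma-like cells. Without D+F the adjusted p was 0.288 for Abcb1b (-0.82) and 0.115 for Top2a (-0.56), and without aPD-1 it was 0.0828 (-1.18) and 0.112 (-0.59). With cycling set by 3 proliferation genes Abcb1b was at -1.24 (adjusted p = 0.112), and Top2a was at 0.11, on the other side of 0 (adjusted p = 0.971). After thinning to 5000 UMIs Abcb1b was at -1.21 (adjusted p = 0.448).

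**Figure D5:**
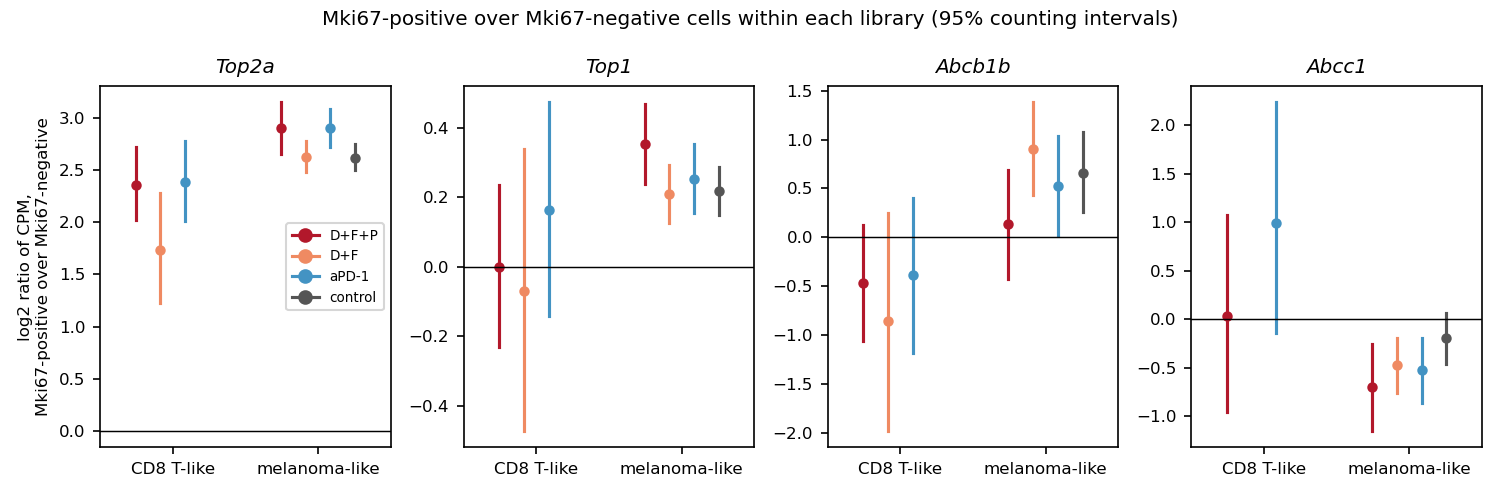
Log2 ratio of CPM in Mki67-positive over Mki67-negative cells of each library, in CD8 T-like and melanoma-like cells, with 95% counting intervals (Abcc1 in CD8 T-like cells of D+F had under 20 UMIs and is not drawn). Abcb1b lies at -0.86 to -0.39 in CD8 T-like cells and at 0.14 to 0.90 in melanoma-like cells.

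Between libraries of CD8 T-like cells, Top2b differed beyond counting error. It was at 50.4 CPM in D+F+P, 30.9 in D+F and 35.0 in aPD-1, with log2 ratios of 0.71 over D+F (0.21 to 1.23) and 0.53 over aPD-1 (0.16 to 0.91). Only the first was past 1.5-fold higher, where 12.8% of genes were, against 9.81% in the second. Abcg2 had too few UMIs for a ratio. The class had a different make-up in each library, with a cluster whose leading genes include Ly6c2 and Ccl5 holding 144 of 352 cells in D+F+P, 13 of 165 in D+F and 47 of 332 in aPD-1, and its part in Top2b was not tested. Abcb1b differed by 0.01 (-0.58 to 0.64) and 0.03 (-0.45 to 0.51) in the same comparisons.

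In NK-like cells, of which a library held 40 to 74, both Top1 and Top2a were past 1.5-fold lower than control in all 3 treated libraries. They were the only members with 20 UMIs in every pair, and 20.2%, 21.3% and 21.4% of genes were as low. Top1 was at 108, 118 and 113 CPM in D+F+P, D+F and aPD-1 and at 282 CPM in control. Top2a was at 125, 48.6 and 65.5 CPM and at 282 CPM in control, from 45, 7, 11 and 42 UMIs in that order. Mki67 itself was at 49.9, 6.94, 107 and 235 CPM, and the share of NK-like cells with an Mki67 UMI was 10.8%, 2.13%, 17.1% and 25.0%. Melanocyte markers were at 2.11%, 7.50%, 3.84% and 3.25% of their melanoma-like level in these cells. The part of cycling cells or tumour RNA in the NK-like values was not tested.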

How the data were processed

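Single-cell 5′ RNA was measured in 4 libraries, 1 per group. Per the labels' protocols the cells came from digested tumours, and the submitters' processing notes name Cell Ranger 3.1.0 and GRCm38 (mm10). The values deposited by the authors are unnormalized UMI counts for each gene in each cell barcode, all of them whole.

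A barcode was kept with 300 genes or more, 500 UMIs or more and a mitochondrial share up to 20%. Cells were clustered in scanpy 1.11.5 (2000 variable genes without the members, Mki67 and the proliferation list; 30 principal components, 15 neighbours, Leiden resolution 1, no integration) and named by marker lists. A name needed at least 3 markers, each in at least 10% of cells, and the ending "-like" marks a name from transcripts alone. Clusters with a median ribosomal share under 10%, or with few UMIs, were left unnamed where none of their leading genes was a marker of the class, as were clusters led by markers of another class. No doublet caller was run, and cells with markers of another class were left out as an alternative.

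UMIs were summed per library, class and state and divided by their total (CPM) with exact Poisson intervals. Library ratios carry exact conditional binomial 95% intervals and needed 20 cells in each library and 20 UMIs in the pair, and 1.5-fold counted as called. Shares have exact Clopper-Pearson intervals, and a share of 0 is given with a floor of 3 cells. PCR copies are removed by the UMIs, and all intervals cover counting error only. The Mki67 contrast was tested with edgeR 4.0.16 (quasi-likelihood, TMM, library as block, Benjamini-Hochberg over all genes, adjusted p under 0.05). On simulated counts for this contrast over 11245 genes it recovered 100% of genes set 2-fold higher or lower and 82% of those set at 1.5-fold, of 100 each, with 12 false calls. For the difference between classes it recovered 66% of 2-fold differences over 10167 genes, with 2 false calls. The simulated counts had the same fixed spread for every gene, and only well-sampled genes were changed. These shares therefore do not cover sparse genes.

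The members and gene lists were chosen with earlier results of these data known. Other genes named are from the ends of each list (some are not reported here), the nearest genes by correlation and leading genes of clusters, which were picked after their values were seen. Alternatives covered thinning, scaling, cell filter, cell weight, clustering, doublets, cycling definition, tool, block and each library left out.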

Additional observations from a re-analysis of the deposited data

Results flagged for a closer look

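The change of 2 members with cycling state differed between cell classes. For Abcb1b the log2 difference between Mki67-positive and Mki67-negative cells was lower in CD8 T-like than in melanoma-like cells (difference -1.10, edgeR adjusted p = 0.0202), and the contrast was below 0 in 3 of 3 CD8 T-like and above 0 in 3 of 3 melanoma-like sums. The call was lost with cycling set by 3 proliferation genes (-1.24, adjusted p = 0.112), after thinning to 5000 UMIs (-1.21, adjusted p = 0.448), without D+F (-0.82, adjusted p = 0.288) and without aPD-1 (-1.18, adjusted p = 0.0828). For Top2a the difference was -0.57 (edgeR adjusted p = 0.0302), with the contrast above 0 in both classes in all 3 treated libraries. That call was lost without D+F (-0.56, adjusted p = 0.115), without aPD-1 (-0.59, adjusted p = 0.112) and with cycling set by 3 proliferation genes (0.11, adjusted p = 0.971).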

How the results depend on the processing

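The lower Top2a of melanoma-like cells against control kept its sign under every alternative run over all cells. Over D+F+P, D+F and aPD-1, cells thinned to 1000 UMIs gave -0.88, -0.60 and -0.69. Thinning to 5000 UMIs gave -0.94 in D+F and -0.95 in aPD-1, and the mean of each cell's own CPM gave -0.96 in D+F+P. Within clusters the log2 ratios were -0.71, -0.63 and -0.041 (cluster 0), -0.53, -0.39 and -0.19 (cluster 1), and -0.39, -0.25 and -0.54 (cluster 4). They were -0.65 in D+F+P and -0.61 in D+F for cluster 2, -0.93 in D+F+P for cluster 3, and -0.72 in D+F and -0.60 in aPD-1 for cluster 8. The intervals of cluster 0 in aPD-1 and cluster 4 in D+F included 0. With cycling set by 3 proliferation genes the non-cycling ratio turned to 0.20 in D+F+P and 0.041 in aPD-1, and the Top2a difference between CD8 T-like and melanoma-like cells to 0.11. The cause was not tested.

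In the Mki67 contrast of 2543 higher and 2852 lower genes, DESeq2 called 1495 lower. Without the library block, which pairs the 2 states of a library, 1273 were higher and 986 lower. After thinning to 1000 UMIs 78 were higher and 30 lower, and after thinning to 5000 UMIs 967 and 985, with fewer genes tested. The share of cycling melanoma-like cells fell under thinning to 1000 UMIs to 5.06%, 5.59%, 6.03% and 7.99% in D+F+P, D+F, aPD-1 and control, and to 17.9%, 20%, 19.3% and 29.7% at 5000 UMIs. By 3 proliferation genes it was 86.4%, 77.2%, 76.8% and 88.9%. In monocyte/macrophage-like cells thinning to 5000 UMIs gave 8.33%, 6.67%, 9.30% and 11.1%, from 1 of 12, 1 of 15, 4 of 43 and 1 of 9 cells. For the members' other values, 1177 were unchanged in side and size, 178 moved, 10 lost and 1 gained a call. Depth limits Abcb1a in tumour cells and every pump outside melanoma-like and CD8 T-like cells.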

Other observations

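Unnamed clusters with few ribosomal transcripts differed in several members, among them both P-glycoprotein genes. In cluster 13, nearest to T cells, with 647 barcodes in D+F+P, 77 in D+F and 73 in aPD-1, Abcb1b was at 124, 141 and 139 CPM from 59, 7 and 7 UMIs. Abcb1a was at 96.8, 60.5 and 19.9 CPM there, from 46, 3 and 1 UMIs, and Top1 at 494, 423 and 516 CPM. Top2b was at 198, 80.6 and 119 CPM from 94, 4 and 6 UMIs, and Abcc1 at 40.0, 40.3 and 79.4 CPM from 19, 2 and 4 UMIs. In cluster 7, also nearest to T cells, with 136 barcodes in D+F+P and 54 in aPD-1, Abcb1b was at 120.0 and 114 CPM from 24 and 6 UMIs, and Abcb1a at 55.0 and 94.6 CPM from 11 and 5 UMIs. These Abcb1b values were above the 23.7 to 24.1 CPM of CD8 T-like cells. In the unnamed sub-cluster nearest to NK cells, with 289, 37 and 64 barcodes in D+F+P, D+F and aPD-1, Abcb1b was at 83.0, 41.0 and 9.47 CPM from 24, 2 and 1 UMIs. In cluster 12, nearest to melanoma cells, Abcb1b was at 9.21, 10.4, 17.2 and 0 CPM in D+F+P, D+F, aPD-1 and control. These values rest on 3, 5, 6 and 0 UMIs, and Abcb1a was at 0 UMIs in all 4 libraries. Abcc1 was at 43.0, 89.4, 54.4 and 65.6 CPM there, from 14, 43, 19 and 22 UMIs. Abcg2 was at 33.8, 47.8, 48.7 and 35.8 CPM, from 11, 23, 17 and 12 UMIs. These values of both pumps were above those of melanoma-like cells. Cluster 13 was shallow, with median UMIs of 671, 569 and 602 in D+F+P, D+F and aPD-1.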
